A study of Mus musculus with 12 samples.

Results

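Neutrophil granule and calprotectin genes are 10 genes chosen by symbol from the table of the series: *S100a8*, *S100a9*, *Ngp*, *Camp*, *Cxcr2*, *Retnlg*, *Slpi*, *Ly6g*, *Lcn2* and *Hp*. All 10 were found among the 54833 genes listed, and 8 of them were among the 21495 genes with enough counts to be tested; *Camp* and *Ly6g* were not. *Lcn2* and *Hp* were kept apart from the other 8, because cells of the brain make them too. The RNA came from the tissue of the caudate putamen around the hematoma of male wild-type C57BL/6 mice, 24 h after an injection into the brain. The 4 groups were young sham and young ICH mice, aged 8 to 10 weeks, and aged sham and aged ICH mice, aged 20 to 22 months. Sham mice received saline and ICH mice collagenase type IV, which digests the collagen around small vessels so that blood enters the tissue. Each group had 3 samples, each sample was a pool of 2 or 3 mice, and all mice were perfused with phosphate-buffered saline before dissection.

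Neutrophils are short-lived white blood cells that leave the circulation early after an injury. They form in the bone marrow, where they fill 1 kind of granule after another: primary (azurophil) granules first, with myeloperoxidase and elastase, then specific granules with lactoferrin, lipocalin-2 and cathelicidin, and last gelatinase granules. The transcripts of granule proteins are therefore most abundant in immature cells, and many of them are low in the mature neutrophils of blood and tissue. S100A8 and S100A9 are different in this respect: they pair to form calprotectin, which makes up a large share of the cytosolic protein of a mature neutrophil, binds calcium, zinc and manganese and is also made by monocytes. In the injured brain, astrocytes and endothelial cells make lipocalin-2, and haptoglobin, the plasma protein that binds free hemoglobin, is made mostly by the liver but also by oligodendrocytes.

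The members lie on 7 chromosomes of the mouse genome (GRCm38, GENCODE vM21), and all 10 are annotated as protein-coding. *S100a8* (chr3:90668978-90670035, plus strand) and *S100a9* (chr3:90692632-90695721, minus strand) are neighbors in the S100 cluster with 22.6 kb between them. *Ngp* (chr9:110419747-110423012, plus strand) and *Camp* (chr9:109847379-109849617, minus strand), which code for related proteins of the cathelicidin family, are 570.1 kb apart. *Cxcr2* lies at chr1:74153989-74161246 (plus strand), *Retnlg* at chr16:48872621-48874496 (plus strand), *Ly6g* at chr15:75155240-75159126 (plus strand), *Lcn2* at chr2:32384633-32388252 (minus strand) and *Hp* at chr8:109575128-109579172 (minus strand). *Slpi* (chr2:164354070-164389095, minus strand) contains the microRNA gene *Mir7678* on the same strand, and was the only member that overlapped another annotated gene. *Ly6g* belongs to a cluster of closely similar Ly6 genes. The sources used here do not say what was done with reads that match more than 1 place, so the count of *Ly6g* is uncertain.

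The sequence before the start was available for 9 of the 10 members in RefSeq (GRCm38.p6) and was searched on both strands, within 250 bases, for TTNNGNAAT, a form of the site of the C/EBP factors that drive granule genes in maturing neutrophils. The same was done for TTCNNNGAA, a STAT site, and for a motif of NF-kB. The C/EBP letters were found in the windows of *S100a9*, *Ngp* and *Slpi*, and the STAT and NF-kB letters in none of the windows searched. Over all 32851 promoters of the table, 10.16% held the C/EBP letters, 7.02% the STAT letters and 4.109% the NF-kB letters. Shown here, with the C/EBP match in capitals, are the members that held one and, for comparison, *Retnlg*, which rose with ICH and held none; they are the stretches at chr3:90695722-90695971 (minus strand), chr9:110419558-110419746 (plus strand, ending where the annotated first exon begins), chr2:164356508-164356757 (minus strand) and chr16:48872358-48872607 (plus strand).
S100a9: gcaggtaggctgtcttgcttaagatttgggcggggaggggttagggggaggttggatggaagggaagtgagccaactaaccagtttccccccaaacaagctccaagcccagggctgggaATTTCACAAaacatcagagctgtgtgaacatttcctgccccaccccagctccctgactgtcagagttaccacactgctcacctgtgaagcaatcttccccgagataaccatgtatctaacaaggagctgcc
Ngp: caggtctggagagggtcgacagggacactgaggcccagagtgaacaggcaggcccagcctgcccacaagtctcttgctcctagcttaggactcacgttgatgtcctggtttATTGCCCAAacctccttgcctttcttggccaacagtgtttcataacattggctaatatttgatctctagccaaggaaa
Slpi: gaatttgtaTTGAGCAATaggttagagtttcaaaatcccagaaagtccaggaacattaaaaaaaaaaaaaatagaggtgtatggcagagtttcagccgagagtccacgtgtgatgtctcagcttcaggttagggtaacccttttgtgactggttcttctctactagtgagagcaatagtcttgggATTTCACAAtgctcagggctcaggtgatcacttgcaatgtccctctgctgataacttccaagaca
Retnlg: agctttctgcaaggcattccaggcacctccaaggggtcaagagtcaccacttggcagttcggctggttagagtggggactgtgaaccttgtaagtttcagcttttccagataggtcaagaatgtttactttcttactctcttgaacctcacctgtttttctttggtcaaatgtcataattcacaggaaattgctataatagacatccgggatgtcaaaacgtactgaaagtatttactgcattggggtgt
The match began 131 bases before the start of *S100a9*, 139 bases before that of *Ngp*, and 241 and 65 bases before that of *Slpi*, counted from the start in RefSeq. For *Ngp* that start lies 61 bases inside the GENCODE first exon, and for *Slpi* it lies inside the longer GENCODE gene, so that the stretch shown for *Slpi* falls within that gene but in none of its exons. The windows of *S100a8* (93 bases in an exon), *Camp*, *Cxcr2* and *Ly6g* also ran into the GENCODE gene. That of *Lcn2* (chr2:32387740-32387989) lay wholly inside its GENCODE gene, so the bases before the GENCODE start of *Lcn2* were not searched. The same 9 letters, ATTTCACAA, stood before *S100a9* and *Slpi*. Such matches are a description of the letters and do not show that a factor binds there.

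The reads counted on genes totalled 28410896 to 37785160 per sample, and levels are given as CPM, which are counts scaled to 1000000 reads of the TMM-normalized library, or as FPKM where members are compared with each other. A DEG had FC > 1.5 or < 0.67 with an unadjusted *P* under 0.05 in edgeR's quasi-likelihood test, fitted to all 12 samples, and the Benjamini-Hochberg adjusted *P* over all genes tested is given beside it. Within the groups, some samples stood apart in most members. Young ICH replicate 1 was the lowest of its group in 8 of the 8 tested members and aged sham replicate 3 the highest of its group in 7 of 8. Aged ICH replicate 3 and young sham replicate 1 were each the lowest of their groups in 6 of 8. Because a sample is a pool of tissue, more neutrophils and more RNA per neutrophil cannot be told apart in these data.

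ICH raised most of the members in mice of both ages. In young ICH vs. young sham, 6 of the 8 members tested were upregulated DEGs, and the same number were higher with an adjusted *P* under 0.05 (edgeR). Of all genes tested, 8.66% were upregulated DEGs and 9.89% were higher with an adjusted *P* under 0.05. In aged ICH vs. aged sham, 6 of 8 were upregulated DEGs and 6 of 8 were higher with an adjusted *P* under 0.05 (edgeR), beside 7.24% and 7.0% of all genes. The 2 members that missed the criteria were *Ngp* and *Slpi* in young mice and *Ngp* and *Hp* in aged mice. The median log2FC of the 8 members was 2.85 in young and 2.23 in aged mice, and that of all genes tested was 0.02 and 0.002. Every ICH sample lay above every sham sample in 7 of 8 members in young mice and in 6 of 8 in aged mice, beside 18.5% and 17.8% of all genes. Without aged sham replicate 3 and young ICH replicate 1, a choice made after the data were seen, 7 members were upregulated DEGs at each age. In aged mice the number with an adjusted *P* under 0.05 was 3 without aged sham replicate 1 and 2 without aged ICH replicate 1, while the number of DEGs stayed at 6 or 7 without any 1 sample.

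**Figure D1:**
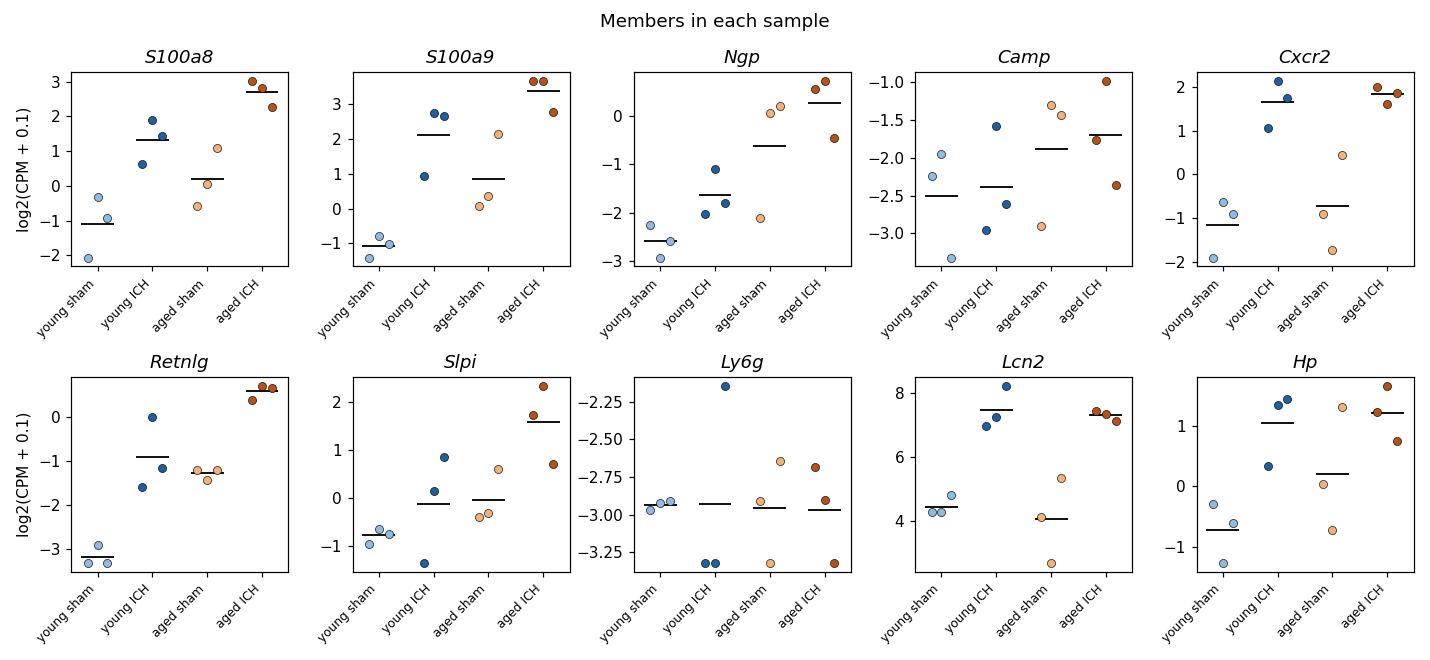
Levels of the 10 members as log2(CPM + 0.1) in each of the 12 samples, by group; points are samples (replicates 1 to 3 from left to right), lines are group means, and each panel has its own axis. *S100a8*, *S100a9*, *Cxcr2*, *Retnlg* and *Lcn2* were higher in every ICH sample than in every sham sample of the same age, while *Camp* and *Ly6g* stayed at 0 to 12 counts per sample.

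The calprotectin subunits were among the clearest. *S100a9* counted 10, 15 and 12 reads in young sham replicates 1 to 3 and 63, 198 and 197 in young ICH. In the aged groups it counted 29, 35 and 144 in sham and 454, 372 and 215 in ICH. The ranges of sham and ICH did not overlap at either age, but aged sham replicate 3 was above young ICH replicate 1. Its mean level rose from 0.383 ± 0.1004 to 4.88 ± 2.65 CPM in young mice and from 2.15 ± 1.88 to 10.7 ± 3.39 CPM in aged mice (SD, n = 3). These were log2FC of 3.67 ± 0.68 and 2.30 ± 0.57 (SE), with adjusted *P* of 0.00479 and 0.0233 in edgeR.

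*S100a8* counted 5, 22 and 13 reads in young sham, 50, 109 and 83 in young ICH, 17, 28 and 68 in aged sham and 289, 205 and 150 in aged ICH. Each ICH sample was again above each sham sample of its age, and each aged ICH sample was above each young ICH sample. Its log2FC with ICH was 2.61 ± 0.57 for young and 2.46 ± 0.50 for aged mice (SE, edgeR, adjusted *P* = 0.00953 and 0.0113). For every read of *S100a9* there were 0.421 to 0.794 reads of *S100a8* in young ICH samples and 0.551 to 0.698 in those of aged ICH. The ratio was 0.5 to 1.467 in young sham and 0.472 to 0.8 in aged sham, where it rests on few reads.

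*Cxcr2* codes for the receptor by which neutrophils follow CXC chemokines out of the marrow and into tissue. It counted 6, 17 and 13 reads in young sham, 69, 130 and 103 in young ICH, 13, 6 and 42 in aged sham and 140, 88 and 113 in aged ICH. The ranges of sham and ICH did not overlap at either age, and those of young and aged ICH did. The log2FC with ICH was 3.08 ± 0.55 for young and 2.44 ± 0.51 for aged mice (SE, edgeR, adjusted *P* = 0.00406 and 0.0130).

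*Retnlg* codes for resistin-like gamma, a secreted protein found in neutrophils of the mouse. Its counts were 0, 1 and 0 in young sham, 8, 27 and 11 in young ICH, 10, 8 and 11 in aged sham and 43, 45 and 47 in aged ICH. Only 1 read stood for all young sham samples, and a count of 0 still allows up to 3 reads in a library of this depth. A log2FC against this group has little meaning, so the ratio of the summed counts is given with its exact interval, which covers counting error only. Per library size, young ICH had 46.9 times the reads of young sham (95% interval 8.0 to 1890). In aged mice, where both groups had reads in every sample, the log2FC was 2.16 ± 0.44 (SE, edgeR, adjusted *P* = 0.0118). The aged ICH samples differed little from each other, between 1.199 and 1.523 CPM.

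*Slpi* codes for an inhibitor of elastase and other neutrophil proteases, and is also made by epithelial cells and macrophages. It counted 15, 17 and 15 reads in young sham, 10, 30 and 54 in young ICH, 20, 21 and 47 in aged sham and 115, 146 and 49 in aged ICH. The young ICH samples lay on both sides of the young sham samples, whereas the aged ICH samples all lay above the aged sham samples. The log2FC was 1.04 ± 0.60 in young mice (SE, edgeR, adjusted *P* = 0.258) and 1.79 ± 0.54 in aged mice (adjusted *P* = 0.0492). Without young ICH replicate 1 the value in young mice was 1.48 and met the criteria (edgeR, adjusted *P* = 0.0790). The difference of these responses was 0.75 ± 0.82 and did not pass the test (SE, edgeR, adjusted *P* = 0.9999).

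*Ngp*, which codes for neutrophilic granule protein of the specific granules, did not meet the criteria for ICH at either age. Its counts were 4, 1 and 2 in young sham, 5, 11 and 6 in young ICH, 4, 28 and 35 in aged sham and 49, 46 and 20 in aged ICH. The ranges of sham and ICH overlapped in aged mice. The log2FC with ICH was 1.64 ± 0.91 for young and 0.73 ± 0.56 for aged mice (SE, edgeR, adjusted *P* = 0.230 and 0.423). The value in young mice met them when aged sham replicate 1 was left out of the fit (1.65, adjusted *P* = 0.0999). Per read of *S100a9* there were 0.0305 to 0.0794 reads of *Ngp* in young ICH samples and 0.0930 to 0.124 in aged ICH samples. These ranges did not overlap, but those of young ICH rest on 5 to 11 reads of *Ngp* per sample, and the difference was not tested. In sham the ratios overlapped, with 0.0667 to 0.4 in young and 0.138 to 0.8 in aged samples.

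*Camp* and *Ly6g* were too low to be tested. *Camp*, the gene of the cathelicidin precursor, had 4, 5 and 0 reads in young sham, 1, 7 and 2 in young ICH, 1, 9 and 9 in aged sham and 7, 12 and 3 in aged ICH. Its summed reads per library size in ICH were 1.13 times those in sham in young mice (95% interval 0.413 to 3.15) and 1.11 times in aged mice (0.574 to 2.17), so that these counts cannot exclude a 2-fold rise in either. *Ly6g*, the surface antigen by which mouse neutrophils are usually identified, had 3 reads in all of young sham, 4 in young ICH, 3 in aged sham and 3 in aged ICH. All 4 reads in young ICH were in replicate 3. With so few reads a change with ICH was not detectable.

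*Lcn2* had the highest level of the 10 members in all 4 groups. It codes for lipocalin-2, which binds the iron carriers of bacteria. It counted 699, 611 and 851 reads in young sham, 4259, 4585 and 9399 in young ICH, 532, 191 and 1344 in aged sham and 6153, 4811 and 4434 in aged ICH. Every ICH sample was well above every sham sample, and the aged ICH samples all fell within the range of the young ICH samples in CPM (139 to 172 against 124 to 296). The log2FC with ICH was 3.10 ± 0.52 for young and 2.88 ± 0.52 for aged mice (SE, edgeR, adjusted *P* = 0.00335 and 0.00753).

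*Hp* counted 26, 10 and 17 reads in young sham, 40, 73 and 83 in young ICH, 28, 15 and 79 in aged sham and 80, 90 and 50 in aged ICH. The ranges of sham and ICH were separate in young mice and overlapped in aged mice, where sham replicate 3 was above ICH replicates 1 and 3 in CPM (2.37 against 2.23 and 1.57). The log2FC was 1.94 ± 0.54 in young mice (SE, edgeR, adjusted *P* = 0.0290) and 0.83 ± 0.50 in aged mice (adjusted *P* = 0.297). Without aged sham replicate 3 the latter was 1.66 (edgeR, adjusted *P* = 0.0493).

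**Figure D2:**
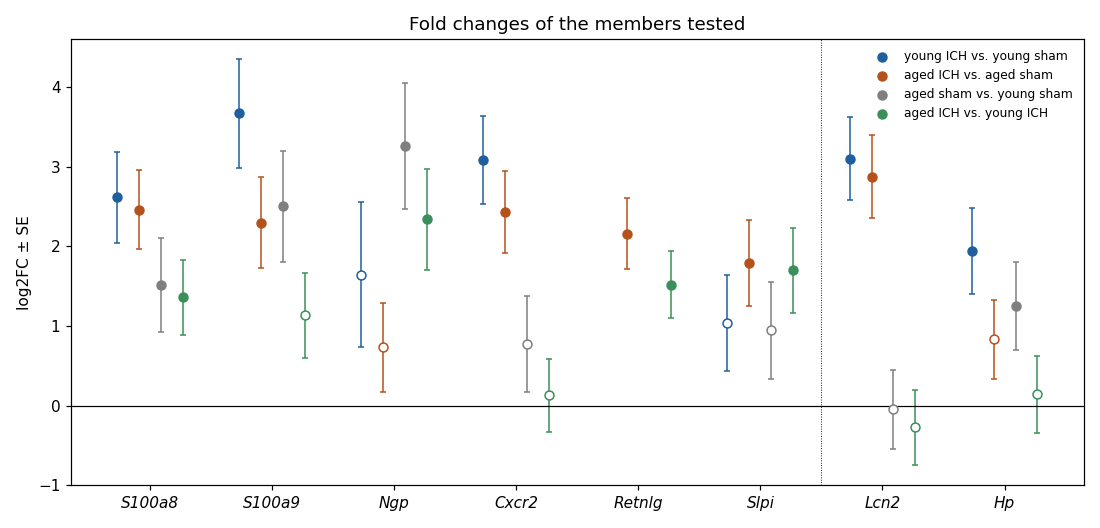
log2FC with its SE of the 8 members tested in the 4 comparisons (edgeR); filled points met FC > 1.5 and *P* under 0.05, open points did not, and the dotted line sets *Lcn2* and *Hp* apart. *Retnlg* is left out where it was compared with young sham, which had 1 read. Both ICH responses of *Lcn2* were near 3 and both of its age differences near 0, while those of *Ngp* were larger with age (3.26 and 2.34) than with ICH (1.64 and 0.73).

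Scaled to transcript length, the members differed widely from each other. In young ICH the mean level was 74.4 ± 37.2 FPKM for *Lcn2*, 9.52 ± 5.17 for *S100a9* and 3.76 ± 1.57 for *S100a8* (SD, n = 3). *Hp* (1.31), *Cxcr2* (1.07), *Slpi* (0.865) and *Retnlg* (0.842) followed with overlapping ranges, and *Ngp* (0.194), *Camp* (0.145) and *Ly6g* (0.0462) were lowest. In aged ICH the means were 62.4 ± 6.70 FPKM for *Lcn2*, 21.2 ± 6.77 for *S100a9* and 9.81 ± 2.55 for *S100a8*, and the sample ranges of these 3 did not overlap. *Slpi* (2.84 FPKM) and *Retnlg* (2.445) came next, before *Hp* (1.47), *Cxcr2* (1.18) and *Ngp* (1.004). The ranges of neighbors in this order overlapped for *Slpi* and *Retnlg*, for *Hp* and *Cxcr2* and for *Cxcr2* and *Ngp*, whereas *Retnlg* (2.09 to 2.67 FPKM) lay above *Cxcr2* (1.02 to 1.33).

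In sham mice, age went with higher levels of most neutrophil members. In aged sham vs. young sham, 5 of the 8 members tested were upregulated DEGs, beside 2.82% of all genes. Of these, *Ngp* and *Retnlg* reached the counts needed for testing only with the aged samples included, which favors them in this count. No member had an adjusted *P* under 0.05 in edgeR, beside 0.0884% of all genes. The 5 DEGs had an unadjusted *P* under 0.05, and 1 member, *S100a9*, reached an adjusted *P* under 0.05 in DESeq2 (0.0322). Every aged sham sample lay above every young sham sample in 4 of the 8, namely *S100a9*, *Ngp*, *Retnlg* and *Slpi*, beside 9.81% of all genes. The log2FC was 1.51 ± 0.59 for *S100a8*, 2.50 ± 0.70 for *S100a9*, 3.26 ± 0.79 for *Ngp* and 1.25 ± 0.55 for *Hp* (SE, edgeR, adjusted *P* = 0.332, 0.221, 0.186 and 0.391). *Retnlg* had 29 reads in aged sham against 1 in young sham, a ratio of 30.5 per library size (95% interval 5.05 to 1245). These reads were spread evenly, with 0.270 to 0.331 CPM in the 3 aged sham samples. *Cxcr2* (0.78 ± 0.60), *Slpi* (0.95 ± 0.61) and *Lcn2* (−0.05 ± 0.50) did not meet the criteria.

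Part of this difference rested on aged sham replicate 3, which had 144 of the 208 *S100a9* reads and 42 of the 61 *Cxcr2* reads of its group. Without it, 3 members were upregulated DEGs, and *S100a8* (0.85) and *Hp* (0.42) missed the criteria. The count was also 3 without young sham replicate 3. *S100a8* also missed the criteria without young sham replicate 1 (1.07) or 3 (1.54), and *Hp* did so without replicate 2 (0.99) or 3 (1.28) of young sham, replicate 2 of young ICH (1.24) or replicate 1 of aged ICH (1.25). *Ngp* and *Retnlg* did not rest on that sample: aged sham replicate 2 had 28 reads of *Ngp* beside the 35 of replicate 3. Without any 1 sample, the log2FC of *Ngp* was 2.85 to 3.77 and that of *S100a9* 1.49 to 2.85, and each kept an unadjusted *P* under 0.05.

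After ICH, 4 of the 8 members were upregulated DEGs in aged ICH vs. young ICH, beside 2.21% of all genes, and 0 had an adjusted *P* under 0.05 in edgeR, beside 0.0372% of all genes. The 4 DEGs had an unadjusted *P* under 0.05, and DESeq2 gave the same 2 counts. They were *S100a8* (1.36 ± 0.47), *Ngp* (2.34 ± 0.63), *Retnlg* (1.52 ± 0.42) and *Slpi* (1.70 ± 0.54), with adjusted *P* of 0.400, 0.258, 0.267 and 0.349 (log2FC ± SE, edgeR). *Ngp* and *Retnlg* reached the counts needed for testing only with the aged samples included, so the number of 4 depends in part on that filter. Every aged ICH sample lay above every young ICH sample in 4 members, *S100a8*, *S100a9*, *Ngp* and *Retnlg*, beside 6.9% of all genes. *S100a9* had a log2FC of 1.13 ± 0.54 and just missed the criteria (SE, edgeR, adjusted *P* = 0.541). It met them without young ICH replicate 2 (1.41), aged sham replicate 1 or 3 (1.13 each) or aged ICH replicate 3 (1.38), and *S100a8* missed them without young ICH replicate 1 (1.08). *Cxcr2* (0.13 ± 0.45), *Lcn2* (−0.27 ± 0.47) and *Hp* (0.14 ± 0.48) lay near 0, with errors that leave room for a difference of 1.5-fold. *Camp*, by its counts, was 2.18 times as high in aged ICH as in young ICH (95% interval 0.989 to 5.15) and 2.22 times as high in aged sham as in young sham (0.957 to 5.57). These comparisons share their samples with those of ICH against sham and are not independent of them.

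The response to ICH was compared between the ages by the interaction in the same model. It met the criteria for 1 of 8 members, *Retnlg*, beside 1.56% of all genes in either direction. Its value, −2.96 ± 1.06, rests on the 1 read of young sham (SE, edgeR, adjusted *P* = 0.9999). With young sham replicate 1 left out it was −2.45 and did not meet the criteria. For the other members it ranged from −1.37 ± 0.88 for *S100a9* to 0.75 ± 0.82 for *Slpi*. *S100a9* met the criteria without young ICH replicate 1 (−1.77) and *Hp* without aged sham replicate 2 (−1.48). The SE of 0.69 to 1.05 of these values are too wide to tell equal responses from responses that differ 2-fold.

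*Lcn2* and *Hp* were then set against *S100a9* within each sample, as the log2 ratio of their CPM with 0.1 CPM added. The mean ratio of *Lcn2* changed by 0.27 with ICH across both ages, which did not pass the test (two-sided exact permutation test within age, *P* = 0.485, adjusted over 2 ratios 0.485). The mean went from 5.53 to 5.36 in young mice and from 3.20 to 3.93 in aged mice, and these opposite directions were not tested separately. With 0.5 CPM added, the change was 0.75 (exact permutation *P* = 0.04). That amount is more than the 0.276 to 0.476 CPM of *S100a9* in young sham, so it lowers the ratio of sham samples more than that of ICH samples. The size of the change thus depends on the amount added. *Hp* rose less than *S100a9*, with a ratio lower by 1.47 on the log2 scale after ICH, or 2.78-fold (exact permutation *P* = 0.005, the smallest that 400 arrangements allow, adjusted 0.01). The *Hp* ratio was −0.46 to 1.12 in young sham and −1.40 to −0.61 in young ICH. In aged mice it was −1.08 to −0.05 in sham and −2.45 to −2.01 in ICH. This fall was not particular to *Hp*. The mean ratio of *Slpi* went from 0.29 to −2.24 in young and from −0.90 to −1.78 in aged mice. That of *Ngp*, on few reads, went from −1.515 to −3.756 and from −1.475 to −3.098, and that of *Retnlg* from −2.15 to −2.79 in aged mice. The ratios of *S100a8* and *Cxcr2* fell in young mice and changed little in aged mice. None of these changes was tested.

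**Figure D3:**
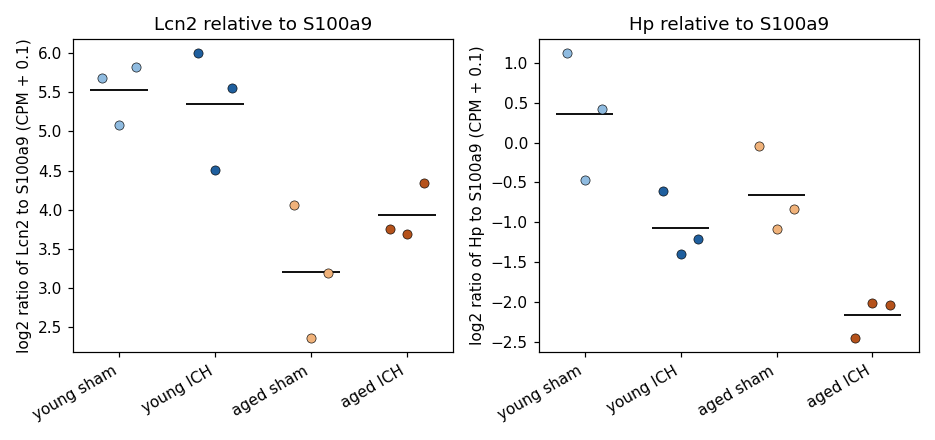
log2 ratio of *Lcn2* (left) and *Hp* (right) to *S100a9*, each as CPM + 0.1, in the 12 samples; points are samples, lines are group means. All aged samples had a lower *Lcn2* ratio (2.35 to 4.35) than any young sample (4.51 to 6.003), and the *Hp* ratio was lower in ICH than in sham at each age.

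The *Lcn2* ratio was lower in every aged sample than in every young sample. It was 5.08 to 5.83 in young sham and 4.51 to 6.003 in young ICH, against 2.35 to 4.06 in aged sham and 3.68 to 4.35 in aged ICH. There were thus 23.2 to 70.9 reads of *Lcn2* for every read of *S100a9* in young samples and 5.46 to 20.6 in aged samples. The mean difference between aged and young was −1.88, or 3.68-fold lower, in an exact permutation test within surgery that was chosen after these values were seen (*P* = 0.005, the smallest possible, adjusted over 2 ratios 0.01). For *Hp* it was −1.05, or 2.07-fold lower (exact permutation *P* = 0.01, adjusted 0.01). Leaving out any 1 sample left the *Lcn2* difference between −2.10 and −1.67. A lower ratio in aged mice was not particular to *Lcn2* and *Hp*. The mean ratio of *Cxcr2* to *S100a9* was −0.09 in young sham and −0.46 in young ICH, against −1.59 in aged sham and −1.54 in aged ICH. Those of *S100a8*, *Slpi* and *Retnlg* were lower with age in sham but not after ICH, and that of *Ngp* in neither. These differences were not tested.

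The other genes of neutrophils were described with lists written from general knowledge, but with earlier results of these data known. The counts of these lists are therefore no independent support for the members. Of 9 further genes of the specific and gelatinase granules, 8 could be tested, and 5 were upregulated DEGs in young ICH vs. young sham, 4 in aged ICH vs. aged sham, 5 in aged sham vs. young sham and 3 in aged ICH vs. young ICH. With an adjusted *P* under 0.05 the counts were 4, 3, 0 and 0 in the same order. Of all genes tested, 8.66%, 7.24%, 2.82% and 2.21% were upregulated DEGs in these comparisons. The list was not uniform. Over the 8 genes tested, log2FC with ICH ranged from 0.24 to 4.13 in young mice (median 1.48) and from −0.29 to 2.94 in aged mice (median 0.99). In aged ICH vs. young ICH it ranged from −0.38 to 2.72 (median 0.43). In young sham most of the summed level of the list came from *Itgam* (median 21.18 CPM, against 32.01 CPM for the list). *Itgam* was a DEG in none of these comparisons, and which cells expressed it was not tested. *Mmp8*, neutrophil collagenase, had a log2FC of 4.13 ± 0.62 with ICH in young mice and 1.49 ± 0.45 in aged mice (SE, edgeR, adjusted *P* = 0.00216 and 0.0509). The value in young mice rests on 7 reads in all of young sham. The interaction of *Mmp8*, −2.64 ± 0.80, met the criteria, but not after adjustment (SE, edgeR, adjusted *P* = 0.9999). *Chil3*, which codes for a chitinase-like protein of neutrophils and macrophages, rose by 3.58 ± 0.55 and 2.94 ± 0.48 (SE, edgeR, adjusted *P* = 0.00227 and 0.00547). *Mmp9*, gelatinase B, rose by 1.54 ± 0.23 and 1.03 ± 0.22 (adjusted *P* = 0.00199 and 0.0133). *Ltf*, the gene of lactoferrin, had 1 read in all of young sham, 11 in young ICH, 38 in aged sham and 77 in aged ICH. *Ltf*, like *Ngp* (67 against 22), thus had more summed reads in aged sham than in young ICH, a difference that was not tested. The sample ranges overlapped for both genes. *Ltf* had 1 to 27 reads per aged sham sample, or 0.0331 to 0.809 CPM, against 0.0871 to 0.133 CPM in young ICH. *Ngp* had 0.132 to 1.05 CPM in aged sham and 0.145 to 0.366 in young ICH. *Cd177*, a surface protein held in specific granules, had a log2FC of 1.44 ± 0.55 with ICH in aged mice and met the criteria (SE, edgeR, adjusted *P* = 0.110). In young mice it was 1.17 ± 0.78 and did not, and the interaction, 0.27 ± 1.13, did not pass the test. *Ltf* and *Cd177* had at most 4 and 8 reads in any young sample and reached the counts needed for testing through aged samples. Their place among the DEGs with age depends in part on that filter.

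Of 5 genes of the primary granules and of their progenitors, 4 had at most 21 reads in any group. *Mpo* had 3 reads in young sham, 5 in young ICH, 11 in aged sham and 21 in aged ICH. *Elane* had 0 reads in each young group, 6 in aged sham and 4 in aged ICH, *Ctsg* 0, 1, 1 and 4 in the same order, and *Ms4a3* 4, 2, 1 and 7. A count of 0 over 3 libraries allows up to 3 reads for the group. *Prtn3* had 76, 90, 99 and 99 reads in the same order. It was the only gene of the 5 that could be tested, and met the criteria in none of the 4 comparisons (log2FC of −0.06 to 0.45).

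Surface and receptor genes of neutrophils rose with ICH at both ages. Of 10 listed, 8 could be tested. Of these, 8 were upregulated DEGs in young ICH vs. young sham and 7 in aged ICH vs. aged sham, beside 8.66% and 7.24% of all genes. An adjusted *P* under 0.05 was reached by 7 and 5 of them. In young sham most of the summed level of the list came from *Csf3r* (median 9.34 CPM, against 13.66 CPM for the list). The 8 neutrophil members together had a median of 1.85 CPM there. Which cells expressed *Csf3r* was not tested. *Il1r2*, the decoy receptor of interleukin-1, rose by 2.42 ± 0.37 and 1.89 ± 0.37 (SE, edgeR, adjusted *P* = 0.00241 and 0.00997), and *Ptafr*, the receptor of platelet-activating factor, by 1.63 ± 0.26 and 1.24 ± 0.25 (adjusted *P* = 0.00279 and 0.0111). *Trem1*, an activating receptor, rose by 3.28 ± 0.74 in young mice (adjusted *P* = 0.0117) and by 2.05 ± 0.65 in aged mice (adjusted *P* = 0.0605). With age, 5 of the 8 were upregulated DEGs in sham mice and 2 in ICH mice, beside 2.82% and 2.21% of all genes. An adjusted *P* under 0.05 was reached by 0 of the 8 in either. The formyl peptide receptors *Fpr1* and *Fpr2* were upregulated DEGs with age in both, with 1.32 ± 0.26 and 1.86 ± 0.36 in sham and 0.86 ± 0.25 and 0.77 ± 0.29 after ICH (SE, edgeR, adjusted *P* = 0.112, 0.104, 0.302 and 0.446). *Il1r2*, by contrast, was 0.17 ± 0.40 and −0.35 ± 0.33 with age.

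The ligands of CXCR2 and the growth factor of neutrophils rose with ICH at both ages. All 6 genes listed (*Cxcl1*, *Cxcl2*, *Cxcl3*, *Cxcl5*, *Ppbp* and *Csf3*) were upregulated DEGs in both comparisons of ICH with sham. The shares of all genes were 8.66% in young and 7.24% in aged mice. In aged mice the log2FC of the 6 genes was 1.70 to 3.44. In young mice *Cxcl3* and *Ppbp* had 2 reads each in all of sham, against 226 and 32 in ICH, and the log2FC of the other 4 genes was 2.42 to 4.01. All 6 were higher with an adjusted *P* under 0.05 in young mice and 3 of them in aged mice, beside 9.89% and 7.0% of all genes. *Cxcl2* rose by 4.01 ± 0.94 and 3.38 ± 0.80 (SE, edgeR, adjusted *P* = 0.0139 and 0.0201). None of the 6 met the criteria in aged ICH vs. young ICH, where all were above 0 (0.10 to 1.22). Aged sham replicate 3 stood out here as well as in the members: the summed level of the list was 1.01 to 12.3 CPM in aged sham, with a median of 2.55.

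**Figure D4:**
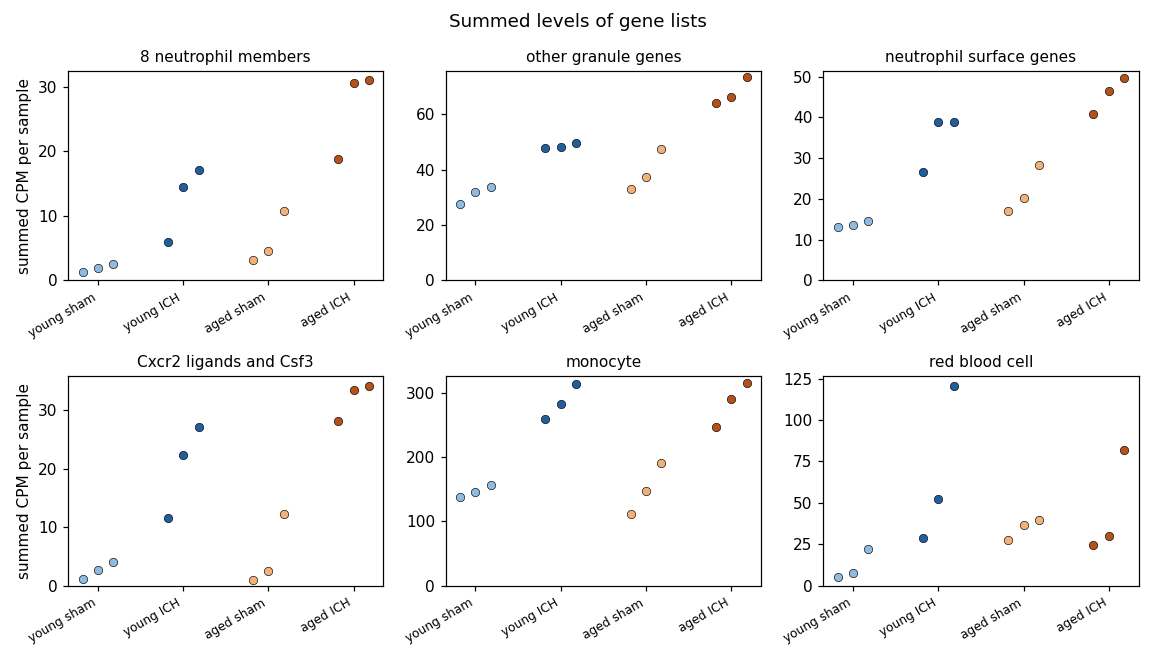
Summed CPM of 6 gene lists in each sample, sorted within each group from lowest to highest; the vertical axes start at 0. The 8 neutrophil members together reached 5.98 to 17.0 CPM in young ICH and 18.8 to 31.0 CPM in aged ICH.

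Summed over the 8 neutrophil members, the level was 1.24 to 2.51 CPM in young sham, 5.98 to 17.0 in young ICH, 3.15 to 10.7 in aged sham and 18.8 to 31.0 in aged ICH. Of 7 monocyte genes, 4 were upregulated DEGs with ICH at each age, beside 8.66% and 7.24% of all genes in young and aged mice. Among them was *Ccr2* (1.94 ± 0.52 and 1.82 ± 0.52, SE, edgeR, adjusted *P* = 0.0249 and 0.0395). With age, 0 of the monocyte genes were upregulated DEGs in sham or in ICH. Their summed level was 138 to 156 CPM in young sham, 259 to 314 in young ICH, 112 to 191 in aged sham and 247 to 316 in aged ICH. Most of this sum came from *Fn1*, the gene of fibronectin, which other cells also express and which had means of 218 CPM in young ICH and 217 in aged ICH, against 15.1 and 15.6 for *Ccr2*. Of 5 red blood cell genes, 3 were upregulated DEGs in aged sham vs. young sham, beside 2.82% of all genes. All 5 were higher in every aged sham sample than in every young sham sample, beside 9.81% of all genes. With ICH, 4 of the 5 were upregulated DEGs in young mice and 1 in aged mice, beside 8.66% and 7.24%. The interaction met the criteria for *Hbb-bs* (−2.59 ± 0.85) and *Hba-a1* (−2.395 ± 0.870), beside 1.56% of all genes in either direction (SE, edgeR, adjusted *P* = 0.9999). Their summed level was 5.20 to 22.4 CPM in young sham, 29.0 to 120.8 in young ICH, 27.8 to 39.5 in aged sham and 24.3 to 82.0 in aged ICH. The difference between the sham groups in red blood cell genes thus went along with that in the neutrophil members, and its part in the latter was not tested. Between the ICH groups red blood cell genes gave 0 DEGs, with a median log2FC of −0.49.

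Lymphocyte genes (2 of 6 tested) were upregulated DEGs in young ICH vs. young sham (2 of 2, beside 8.66% of all genes) and upregulated in no other comparison. They summed to at most 7.17 CPM, in 1 young ICH sample, where the median of the group was 1.765 CPM. Genes of eosinophils, basophils and mast cells summed to at most 1.30 CPM, with 0 of 2 tested upregulated in any comparison. *Cd8a*, of cytotoxic T cells, and *Epx*, of eosinophils, were downregulated DEGs in aged ICH vs. young ICH, with log2FC of −1.91 ± 0.84 and −1.23 ± 0.50 (SE, edgeR, adjusted *P* = 0.504 and 0.472). Of 4 platelet genes, the 2 tested were upregulated DEGs with ICH at both ages, beside 8.66% and 7.24% of all genes. In aged sham vs. young sham 1 of them was, beside 2.82%. Markers of the tissue were present in all samples: genes of astrocytes summed to 4899 to 5964 CPM and those of striatal projection neurons to 232 to 1951 CPM. Of the 6 astrocyte genes, 3 were upregulated DEGs with ICH in young mice and 1 in aged mice. The neuron genes were lower after ICH (medians of −0.94 and −1.10) but 0 of 7 met the criteria. Of 6 genes of homeostatic microglia, 2 were downregulated DEGs with ICH at each age, and of 3 genes of oligodendrocyte precursors none met the criteria in any comparison. Genes of the choroid plexus, which lines the ventricles and can be caught in a dissection, varied from 7.69 to 3918 CPM within young ICH, and 2 of 4 were upregulated DEGs in aged ICH vs. aged sham.

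Of 7 receptors of calprotectin, lipocalin-2 and haptoglobin, *Tlr4*, a receptor of innate immunity, was the only upregulated DEG with ICH, with 1.28 ± 0.23 in young and 1.13 ± 0.22 in aged mice (SE, edgeR, adjusted *P* = 0.00390 and 0.0102). *Ager*, the receptor RAGE, had log2FC of 0.23 and 0.42, *Slc22a17*, a receptor of lipocalin-2, −0.13 and −0.06, and *Bsg*, a surface protein that binds S100A9, 0.002 and −0.07. *Cd163*, which takes up complexes of hemoglobin and haptoglobin, was a downregulated DEG in aged ICH vs. aged sham (−0.75 ± 0.33, SE, edgeR, adjusted *P* = 0.164). *Lrp2*, another receptor of lipocalin-2, was a downregulated DEG in aged ICH vs. young ICH (−1.43 ± 0.64, SE, edgeR, adjusted *P* = 0.515).

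The S100 genes outside calprotectin had smaller log2FC than *S100a8* and *S100a9*. Of 9 listed, 8 could be tested and 5 were upregulated DEGs with ICH at each age, beside 8.66% and 7.24% of all genes in young and aged mice. None of the 8 had a log2FC above 1.78 in young or 1.64 in aged mice. *S100a6* rose by 1.26 ± 0.22 and 1.52 ± 0.22 and *S100a13* by 1.10 ± 0.13 and 1.03 ± 0.13 (SE, edgeR, adjusted *P* = 0.00370, 0.00427, 0.00125 and 0.00316). With age, 0 of the 8 met the criteria in sham or in ICH. The 12 genes of the acute phase in brain, which astrocytes, endothelial cells and microglia express after injury, were all upregulated DEGs with ICH at both ages, as was *Lcn2*. The shares of all genes that were upregulated DEGs were 8.66% in young and 7.24% in aged mice. At each age 10 of the 12 acute phase genes had an adjusted *P* under 0.05, beside 9.89% and 7.0% of all genes that were higher with one. Which cells expressed the acute phase genes here was not tested. Their median log2FC was 2.01 in young and 1.60 in aged mice, and 1 of 12 met the criteria with age in sham and 1 in ICH.

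Across the 12 samples, the genes with patterns most like *S100a9*, by Pearson's r of log2 CPM, were *Csf3r* (0.977), the receptor of the neutrophil growth factor, *Mob3a* (0.967), *Plaur* (0.963), *Birc3* (0.963) and *Ggta1* (0.963). Of the members, *S100a8* had an r of 0.972 with *S100a9*, *Retnlg* 0.929, *Hp* and *Cxcr2* 0.898, *Slpi* 0.852, *Lcn2* 0.795 and *Ngp* 0.768. The genes most like *Lcn2* were others, *Ifitm2* (0.989), *Clic1* (0.987), *Arpc1b* (0.986), *Il4ra* (0.986) and *Rap1b* (0.984). Of the members, *Cxcr2* had an r of 0.944 with *Lcn2*, *Hp* 0.819, *S100a9* 0.795, *S100a8* 0.770, *Retnlg* 0.632, *Slpi* 0.575 and *Ngp* 0.29. *Cxcr2* was thus closer to *Lcn2* than to *S100a9*. For *Hp* they were *Gm45413* (0.938), *Ddx31* (0.932), *Bmp2k* (0.931), *Gm16174* (0.930) and *Klra2* (0.929). These values describe likeness over samples that share the same 4 groups, so that any genes that respond to ICH are alike to some degree. After the group means were taken away, *Slpi* (0.866), *S100a8* (0.846) and *Cxcr2* (0.774) stayed closest to *S100a9* among the members, and *Kcnq1ot1* (0.958) among other genes.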

How the data were processed

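RNA-seq of 12 samples was used, in 4 groups of 3 (sham or ICH, young or aged) given by their labels. The authors aligned paired reads to GRCm38.p6 with Hisat2 and counted reads on genes with FeatureCounts. The deposited table holds these raw counts, which are not normalized. The authors also deposited FPKM, which correct for transcript length and sequencing depth. No filter was applied to the table, and the sources used here give neither a strand nor a multi-mapping setting.

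Counts were tested with edgeR 4.0.16 (limma 3.58.1, R 4.3.3), TMM normalization, filterByExpr with a minimum count of 10 and glmQLFTest, in 1 fit of all 12 samples. SE of a log2FC is its absolute value divided by the square root of F. log2 CPM used a prior count of 2. The fit was tested on simulated data. Ratios to *S100a9* were compared with exact permutation tests (scipy 1.17.1). Ratios of summed counts have exact 95% binomial intervals. Replicates are pools of mice, so *P* values measure the spread between pools. Depth was 28410896 to 37785160 counts per sample, at which 3 reads are about 0.1 CPM, so that counts below 10 carry wide errors.

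The members and gene lists were chosen with earlier results of these data known, and the age ratio was tested after its values were seen. Genes named are all members, genes of the neutrophil, ligand and receptor lists, from other lists some of the 3 with the smallest *P* for ICH, and the 5 with patterns most like *S100a9*, *Lcn2* and *Hp*. Values of 1 gene of these lists are not reported here. Of the 5 whose deviations were most like those of *S100a9*, 3 are named. Alternatives were DESeq2 1.42.0, RLE factors, no filter on low counts, 2 groups only, a replicate block, other pseudocounts, FPKM and each sample left out. Promoters were taken from RefSeq (GRCm38.p6) by symbol; proteins were not used here.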

Additional observations from a re-analysis of the deposited data

How the results depend on the processing

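The numbers of members upregulated with ICH were 6 or 7 at each age under every alternative run. In aged sham vs. young sham the number of 5 fell to 3 with the 2 groups alone in the fit and to 3 without both aged sham replicate 3 and young ICH replicate 1 (chosen after seeing the data), and was 3 to 5 with 1 sample left out. The number with an adjusted *P* under 0.05 rose there from 0 to 1 without the filter on low counts (*Retnlg*) and to 1 in DESeq2 (*S100a9*), and was 0 to 1 with 1 sample left out; DESeq2 gave *Ngp* and *Retnlg* no adjusted *P*. In aged ICH vs. aged sham it was 2 to 6, with 3 without aged sham replicate 1 and 2 without aged ICH replicate 1. The interaction was met by 0 to 2 members. With 0.5 CPM added, the change of the *Lcn2* ratio with ICH became 0.75 (exact permutation *P* = 0.04). This amount exceeds the level of *S100a9* in every young sham sample, and the cause was not tested beyond the weight of low counts.

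Replicate numbers did not pair the samples, which are pools of different mice: deviations of same-numbered samples correlated at −0.454 to 0.235 in 18 pairs, 5 of them over 0.1, and 1 of 12 samples correlated best with its own number. With the replicate number as a block, 6 members were upregulated with ICH at each age, 4 with age in sham and 5 with age in ICH, and the interaction of *Lcn2* turned from −0.23 to 0.11.

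The other reversals were of values that did not meet the criteria. Without both samples named above, log2FC were 0.22 for the interaction of *S100a8*, −0.23 for *Cxcr2* in aged sham vs. young sham, −0.12 for *Cxcr2* in aged ICH vs. young ICH, 0.11 and 0.38 for the interactions of *Cxcr2* and *Lcn2*, and −0.15 for *Hp* in aged ICH vs. young ICH. With 1 sample left out, the interaction was −0.73 to 0.51 for *S100a8*, −1.06 to 0.36 for *Cxcr2* and −0.65 to 0.61 for *Lcn2*. Aged sham vs. young sham was −0.23 to 1.19 for *Cxcr2* and −0.89 to 0.38 for *Lcn2*, and aged ICH vs. young ICH was −0.12 to 0.41 for *Cxcr2*, −0.51 to 0.19 for *Lcn2* and −0.15 to 0.35 for *Hp*. The low counts of *Camp*, *Ly6g*, *Ngp* and of *Retnlg* in young sham limit what can be shown.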

Other observations

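After the group means were removed, the genes whose deviations were most like those of *S100a9* over the 12 samples were *Kcnq1ot1* (r of 0.958), *3110039I08Rik* (0.951) and *2810459M11Rik* (0.938). *Kcnq1ot1* is a long nuclear RNA that is read from the DNA strand opposite *Kcnq1*. It had 160.5 to 200.1 CPM in aged sham and 143.6 to 174.6 CPM in young ICH, so that it varied by far less than *S100a9*. The deviations share libraries and depth, and no test was made of them.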
